A study of Homo sapiens with 3 samples.

Results

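KYSE150 is an established human cell line of esophageal squamous cell carcinoma, and its baseline transcriptome was read here from the array of cells carrying an empty vector. Every probe set that was no control and had a single gene symbol entered, and a gene took the value of its highest probe set on that array. This gave 18132 genes from 44988 probe sets on 1 of the 3 arrays of the series. The other 2 arrays came from KYSE150 cells labelled as overexpressing LOXL2 Δe13, a splice form of lysyl oxidase like 2, and wild-type LOXL2; the LOXL2 probe sets of all 3 arrays are given with the lysyl oxidases. Total RNA was measured on PrimeView human arrays, which read each gene through sets of short probes. The labels do not say how long the cells had carried the vector, whether they were a clone or a pool, or in what medium they grew.

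Values are log2 signals. A gene was called above the floor when its signal reached 5.95, the median of all 49293 non-control probe sets on the array, and below it otherwise. The 75th percentile of those probe sets was 7.85, and genes at or above the 90th percentile of 9.48 are called bright. Of the 18132 genes, 10720 (59.1%) were above the floor and 7412 (40.9%) below, 6354 (35.0%) reached the 75th percentile and 2756 (15.2%) were bright. The median gene stood at 6.69. Each gene group is given below as the number of its measured members above the floor, to be read against 59.1%. That share was 40.3% for genes with 1 probe set, 63.9% with 2 or 3 and 80.7% with 4 or more. The groups differ in their numbers of probe sets and were not matched for them, so 59.1% is a rough guide for any group. The genes just inside were SLCO5A1 at 5.9466, SLC30A2 at 5.9468 and ALOXE3 at 5.9476, and COL11A2, KCNAB3 and CPEB2 stood just outside at 5.946. Probes differ in how brightly they report the same amount of RNA, so signals of different genes show where each lies on this array and do not rank transcript amounts. With 1 array there is no replicate, and no test between groups was made. A signal below the floor is a signal not told from most probe sets of the array and does not show that a transcript was missing.

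Squamous epithelium is built from basal cells that adhere to a basement membrane, divide, and then differentiate upward into flattened cells filled with keratin and sealed by a cross-linked envelope. Basal cells are known for the keratin pair KRT5 and KRT14, for the transcription factor TP63 and for the growth factor receptor EGFR. Carcinomas of this epithelium commonly keep basal features and lose parts of the differentiation program, and they are known for altered cell cycle, oxidative stress and Notch genes.

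KYSE150 showed the basal markers that were measured. KRT5 stood at 11.62 with 2 of 2 probe sets above the floor, EGFR at 10.55 with 6 of 8, and KRT14 at 7.76 with its 1 probe set. TP63 was not analysed here. Markers of leukocytes, fibroblasts, endothelium, glands and neuroendocrine cells were mostly below the floor, while muscle markers were above in 5 of 7 and melanocyte markers in 2 of 4, as counted further on. The array is labelled as cells of an established line and not as tissue, so these counts do not measure shares of other cell types. Whether any other cells were present was not tested.

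The array's own controls show what the floor can and cannot do. Olfactory receptors, a family used in smell and known to be silent in most other cells, were above the floor in 11 of 340 genes (3.2%), with a family median of 4.07. Of the 340, 315 had 1 probe set, and of all genes with 1 probe set 40.3% were above. The 3.2% therefore does not carry over to genes with several probe sets, whose value is the highest of them. The 4 with the strongest signals were OR5H1 at 8.64, OR2A14 at 8.14, OR4N2 at 7.24 and OR52R1 at 6.89. Of these, OR5H1 and OR4N2 had a second probe set below the floor. Genes of the cytosolic ribosome, needed by every cell, were above it in 67 of 71, with a median of 13.74. The 4 below were RPL10L at 5.43, RPL27A at 4.75, RPL3L at 4.58 and RPL39L at 4.30, of which RPL10L, RPL3L and RPL39L are paralogs known from tissues such as testis and muscle. Without probe sets of the types _s_at and _x_at, which can read several transcripts, 31 of 41 measured ribosomal genes were above, against 54.7% of all genes. The 23 background control sets, whose 25-base probes match no transcript, rose with the number of G and C bases, from 2.36 at 3 such bases to 10.84 at 25. Sets with 18 or fewer lay below the floor and the 7 sets with 19 or more lay at or above it. Probes rich in G and C can therefore pass the floor without a transcript, and the G and C content of the genes' own probes was not analysed here.

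**Figure D1:**
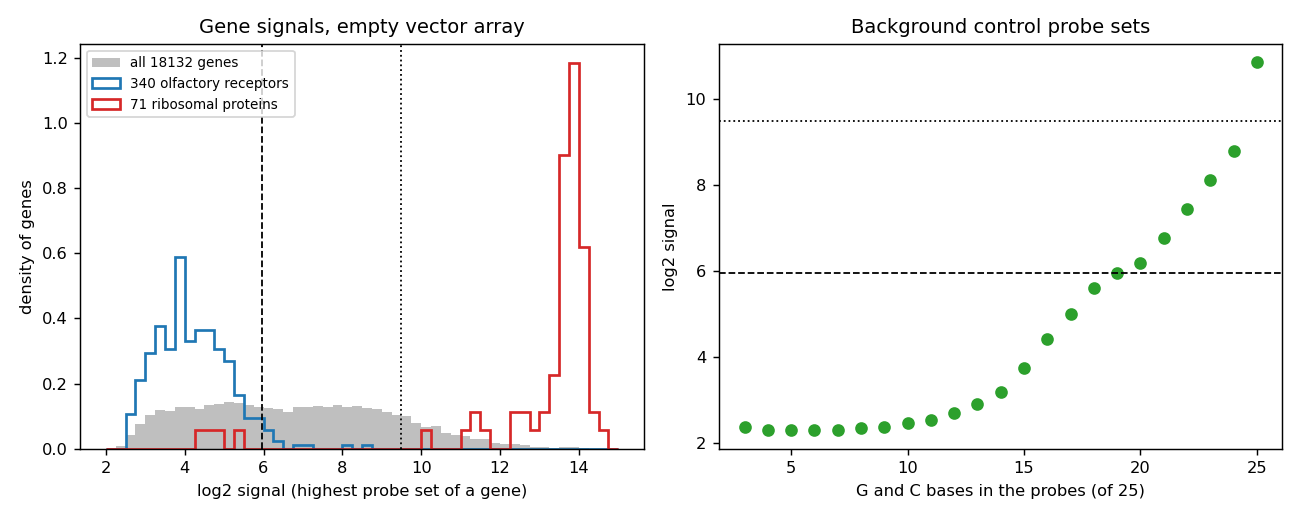
Left: density of log2 signals in the empty vector array for all 18132 genes (grey), 340 olfactory receptor genes (blue outline) and 71 cytosolic ribosomal protein genes (red outline). Right: log2 signal of the 23 background control probe sets against the number of G and C bases in their 25-base probes; dashed lines mark the floor of 5.95 and dotted lines the 90th percentile at 9.48, and the control signal crosses the floor at 19 G and C bases.

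The promoters of 4 genes that the results turn on are shown, 3 of them bright and 1 below the floor: GAPDH (chr12:6535014-6535313, plus strand), a glycolytic enzyme, KRT5 (chr12:52520345-52520644, minus strand), the basal keratin, MAGEA4 (chrX:151912224-151912523, plus strand), a cancer-testis antigen, and IVL (chr1:152908296-152908595, plus strand), the envelope protein involucrin. Each runs from 250 bases before the gene's start to 50 bases after it, 5′ to 3′ on the gene's strand, from RefSeq on GRCh38.p14. Capitals mark each CG dinucleotide and the motif TATAAA, the core of the TATA box.
GAPDH: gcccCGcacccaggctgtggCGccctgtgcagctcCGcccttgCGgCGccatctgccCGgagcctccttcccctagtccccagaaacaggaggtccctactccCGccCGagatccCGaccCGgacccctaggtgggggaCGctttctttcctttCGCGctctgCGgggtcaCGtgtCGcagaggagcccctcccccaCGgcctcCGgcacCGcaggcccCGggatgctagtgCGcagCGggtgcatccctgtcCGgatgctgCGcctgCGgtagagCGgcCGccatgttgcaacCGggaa
KRT5: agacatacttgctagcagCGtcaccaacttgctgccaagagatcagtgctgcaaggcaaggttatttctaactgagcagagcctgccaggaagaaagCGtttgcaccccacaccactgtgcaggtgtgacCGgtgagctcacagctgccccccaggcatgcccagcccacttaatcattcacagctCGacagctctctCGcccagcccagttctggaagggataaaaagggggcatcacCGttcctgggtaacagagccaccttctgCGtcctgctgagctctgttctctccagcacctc
MAGEA4: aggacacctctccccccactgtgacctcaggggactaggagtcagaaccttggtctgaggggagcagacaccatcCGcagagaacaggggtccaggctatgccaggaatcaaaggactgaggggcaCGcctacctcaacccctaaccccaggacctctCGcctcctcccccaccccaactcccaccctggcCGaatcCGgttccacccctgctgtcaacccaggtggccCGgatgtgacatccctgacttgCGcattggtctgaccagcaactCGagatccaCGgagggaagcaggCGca
IVL: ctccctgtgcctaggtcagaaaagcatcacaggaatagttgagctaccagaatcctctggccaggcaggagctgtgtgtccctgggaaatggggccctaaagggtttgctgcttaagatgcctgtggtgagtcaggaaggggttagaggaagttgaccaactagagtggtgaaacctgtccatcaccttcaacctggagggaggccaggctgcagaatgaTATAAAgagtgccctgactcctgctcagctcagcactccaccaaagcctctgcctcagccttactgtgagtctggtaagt

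GAPDH was at 14.19 and its window holds 28 CG dinucleotides at 70.7% G and C. KRT5 has 7 and MAGEA4, at 12.13 with 3 of 3 probe sets above the floor, has 10. IVL, at 4.81 and below the floor, has 0 and carries TATAAA 30 bases before its start. A promoter was matched for 14425 of the 18132 genes. Promoter sequence differed between the signal classes. The median number of CG dinucleotides was 10 for genes below the floor, 25 for genes between 5.95 and 7.85, 27 for those up to 9.48 and 27 for bright genes. The motif TATAAA, searched on both strands, was in 12.0% of all 27305 promoters and in 9.2% of those of genes on the array. It was in 14.8% of promoters of genes below the floor, 6.5%, 4.6% and 5.8% in the rising classes above it, and 32.5% of 268 olfactory receptor promoters. Among keratins with a matched promoter it was in 2 of 5 above the floor and 16 of 27 below. As 6 type I and 5 type II keratins were above the floor, many of those above had no match. The 5 matched are too few for a comparison. These matches describe the letters of the window and do not show a binding site or the cause of a signal.

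Squamous lineage factors were mostly above the floor. Of 20 transcription and splicing factors of squamous and foregut epithelium, 17 were above the floor, with a median of 7.33 against 6.69 for all genes. ESRP1, which drives epithelial splicing, was at 10.29 (2 of 2 probe sets above the floor), and its partner ESRP2 at 9.13. BNC1, a basal keratinocyte zinc finger, was at 9.36, although only 2 of its 5 probe sets passed. TFAP2A, an activator of keratin genes, was at 9.34 with 3 of 7 above, and TFAP2C, of the same family, at 8.59. The epithelial factors ELF3 at 9.25, KLF5 at 8.12 and KLF4 at 7.95 had every probe set above the floor. OVOL2 at 8.07, a repressor of mesenchymal genes, and GRHL1 at 7.5, which controls junction genes, were above as well. PAX9 at 6.96 and PITX1 at 6.87, factors of the oral and esophageal lining, had 2 of 2 probe sets above.

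Several calls were thin. GRHL2, a relative of GRHL1, was at 6.96 through 1 of 5 probe sets, of type _x_at, and read 5.19 by the median or without that type. OVOL1, a relative of OVOL2, was at 7.11 through 1 of 3 and at 5.88 by the median. EHF, an epithelial ETS factor, was at 7.15 through 1 of 8 probe sets, and its highest probe set read 6.37 with Δe13 and 5.49 with wild-type LOXL2. SOX2, a foregut and squamous factor, was at 6.06 through 1 of 3, and read 5.88 and 5.63 there, each array being set against its own median. TBX1, a pharyngeal factor, was at 6.31 with 2 of 4. EHF, SOX2 and TBX1 changed side of the floor between arrays, whereas 14 of the 20 were above it in all 3 arrays. Below the floor were ZNF750 at 4.98 and GRHL3 at 4.67, which promote late squamous differentiation, and FOXE1, a foregut factor, at 3.48. Taking the median of each gene's probe sets in place of the highest left 10 of the 20 above, near the 48.5% of all genes above by that rule.

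Factors of columnar epithelium and endoderm were mostly below the floor, with 2 of 13 above and a median of 5.33. GATA6, which guides endoderm and gut, was above at 7.55 with its 1 probe set. NKX2-1, the lung and thyroid factor, was at 6.47 with 1 of 2, and by medians of probe sets the group had 1 above. FOXA1 at 5.68, GATA4 at 5.62, CDX2 at 5.35, FOXA2 at 5.25 and PDX1 at 3.61, which specify gut, liver and pancreas, were all below. The highest probe set of FOXA1 read 5.96 in the wild-type array, so its side was not the same in every array. The intestinal factor ISX at 4.72, PROX1 at 3.91, FOXA3 at 3.64 and HNF4G at 3.01 were also below.

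Factors of other lineages were above the floor in 5 of 21. PAX5, the B cell factor, was at 9.48 with 3 of 10 probe sets above. MITF, the melanocyte regulator, was at 7.29 with 2 of 2, GATA1 of red cells at 6.70 with 2 of 3, SOX10 of neural crest at 6.59 with 1 of 2 and SALL4, an embryonic factor, at 5.96. The remaining named members were low: POU5F1 at 5.60, OLIG2 at 5.29, SPI1 at 5.01, MYOD1 at 3.19, INSM1 at 3.14, LIN28A at 2.94 and NANOG at 2.79. By medians of probe sets 3 of the 21 were above. HOX genes, which give cells their position along the body axis, were above the floor in 10 of 27 with a median of 5.14. HOXB4 was at 8.25, HOXC6 at 7.64, HOXD10 at 7.44 and HOXB7 at 7.35, while HOXD12 was at 3.06, HOXD1 at 3.43 and HOXD8 at 3.56.

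Genes of the epithelial-mesenchymal transition, in which cells loosen their junctions and gain motility, were split. SNAI2, a repressor of junction genes that basal keratinocytes also use, was at 9.93, TWIST1 at 8.40, fibronectin FN1 at 8.13 with 6 of 8 probe sets above, and vimentin VIM at 7.81 with 2 of 2. ZEB1 was at 4.07 with 0 of 7 probe sets above, ZEB2 at 4.01, SNAI1 at 5.11, PRRX1 at 4.62 and TWIST2 at 4.79. The mesenchymal cadherin CDH2 was at 5.78, below the floor in both of its probe sets. Smooth muscle actin ACTA2 at 6.84 and TAGLN at 6.65 each passed through a single probe set, of 3 and of 6. In all, 8 of 15 were above with a median of 6.34, and 5 of 15 with the median over probe sets.

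Genes recurrently altered in this cancer were above the floor in 23 of 28, with a median of 8.73 and 11 of them bright. CDKN2A, a cell cycle inhibitor often deleted in this tumour, was at 12.19 with probe sets at 9.34, 9.83 and 12.19. Cortactin CTTN was at 11.86 and NFE2L2, the oxidative stress regulator, at 11.75. FAT1, a large cadherin, was at 10.79, CDK6 at 10.73, YAP1 at 10.52 with 7 of 8 probe sets above, and CCND1, which drives entry into the cell cycle, at 9.69 with 4 of 4. CCND1 lies in a segment known to be amplified in tumours of this kind, together with CTTN, FADD, ANO1 and the growth factors FGF3, FGF4 and FGF19. Whether that segment is amplified in these cells was not analysed here. Of that segment FADD was at 9.37, but ANO1 at 5.34, FGF19 at 4.84 and FGF3 at 4.75 were below the floor, and FGF4 was at 6.08 through 1 of 2 probe sets. MYC was at 8.86, RB1 at 7.26 with 1 of 3 above and NOTCH1 at 6.29 with 2 of 3.

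**Figure D2:**
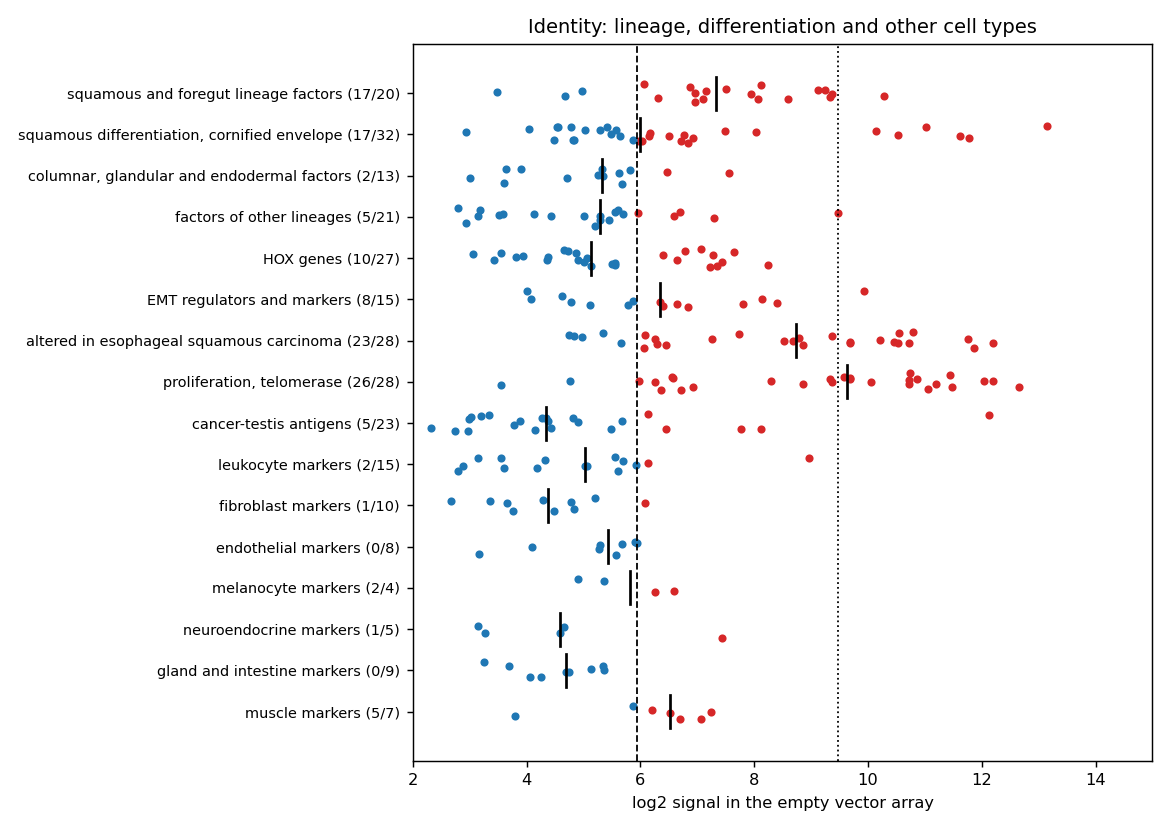
Log2 signal in the empty vector array (horizontal) of every measured gene of 16 groups of lineage, differentiation, proliferation and other cell type genes, with the number above the floor and the number measured beside each name. Red points are above and blue points below the floor (dashed, 5.95), the dotted line is the 90th percentile (9.48) and the black bar each group's median; the endothelial group (0 of 8) and the gland group (0 of 9) hold no red point.

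Keratins, the intermediate filaments whose pairing tells epithelia apart, were strong in few measured members and below the floor in most. KRT6A, KRT6B, KRT16, KRT17, KRT34, KRT81, KRT82 and KRT86 had no probe set with that single symbol and were not analysed here. Of 25 type I keratins 6 were above, with a median of 4.91, and of 21 type II keratins 5, with a median of 5.29. Basal KRT5 at 11.62 and KRT15 at 11.43, the latter of resting basal cells, were bright, together with KRT8 at 12.24 and KRT18 at 13.64, the pair of simple epithelia. The 8 probe sets of KRT8, all of type _x_at, read from 10.47 to 12.24. KRT10, of the spinous layer of skin, was at 9.77, KRT80, of differentiating cells, at 8.26, KRT14 at 7.76, and KRT7, of ducts and glands, at 7.34.

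The pairs that mark the upper layers of esophagus were not above the floor. KRT13 was at 5.59, with its 3 probe sets at 3.54, 4.91 and 5.59, and KRT4 was at 5.78, with probe sets at 5.72 and 5.78. KRT1 at 5.28, the partner of KRT10 in skin, KRT19 at 5.39 and KRT20 at 4.27, of simple and intestinal epithelium, were below as well. Among hair keratins KRT32 at 7.0 and KRT33A at 6.63 were above, the latter in 1 of 2 probe sets, and KRT6C, of activated keratinocytes, was at 7.24. Keratins are close in sequence and KRT8 and KRT18 have many processed copies in the genome. KRT8, KRT14, KRT18 and KRT33A were read only through probe sets of the types _s_at and _x_at where they passed, and without those types 3 of 22 type I and 4 of 20 type II keratins were above.

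**Figure D3:**
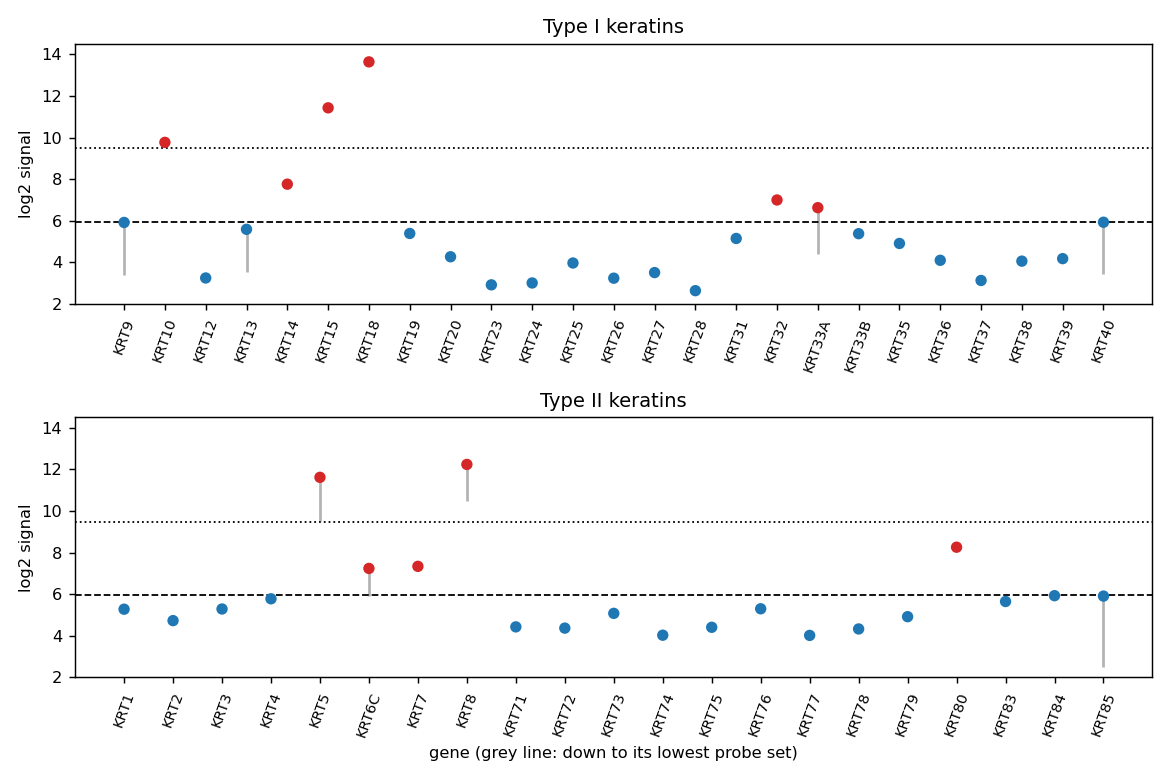
Log2 signal in the empty vector array of 25 type I keratins (upper panel) and 21 type II keratins (lower panel), each point the highest probe set and the grey line reaching down to the lowest. Red points are above the floor (dashed, 5.95) and the dotted line is the 90th percentile (9.48); KRT18, KRT15, KRT10, KRT8 and KRT5 lie above the dotted line.

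Differentiation genes were split. Of 32 genes of squamous differentiation and the cornified envelope 17 were above the floor, near the array-wide share, with a median of 6.00. Annexin ANXA1 was at 13.14 with 4 of 5 probe sets above, S100A2 at 11.77, the protease inhibitors CSTB at 11.61 and CSTA at 11.02, the desmosomal plaque protein periplakin PPL at 10.53 and the protease KLK5 at 10.15. SCEL at 8.04, an envelope protein, had 6 of 6 probe sets above, and filaggrin FLG was at 7.49 and MAL at 6.51. Of other envelope proteins, LCE3D at 6.83, CNFN at 6.72, EVPL at 6.16 and SPRR1A at 6.03 were above, SPRR1A changing side between arrays. Below were IVL at 4.81, LORICRIN at 4.05, SPRR3 at 5.65, SPRR2A at 4.56, SPRR2D at 4.49 and SPRR1B at 2.93. The enzymes that join them, TGM1 at 5.58 and TGM3 at 5.30, were below. The calgranulins S100A8 at 5.87 and S100A9 at 5.49 and the related S100A7 at 4.54 were below, and CRNN, an esophageal envelope protein, was at the floor at 5.97 and read 5.89 in the Δe13 array. Mucins, the glycoproteins of moist and glandular surfaces, were above in 3 of 13. MUC1 was at 8.14 with 13 of 13 probe sets above, MUC5B at 6.17 through 1 of 4 and MUC21 at 5.96 through 1 of 3, while MUC4 was at 5.54, MUC2 at 4.74, MUC16 at 4.64 and MUC7 at 2.78.

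Receptor tyrosine kinases, which carry growth signals across the membrane, were above the floor in 28 of 56 and bright in 6. DDR1, a collagen receptor, was at 12.58 with 4 of 4 probe sets above, AXL at 11.53 with 2 of 2, MET, the hepatocyte growth factor receptor, at 10.97 with 3 of 6, and RYK at 10.25. EGFR had probe sets from 3.91 to 10.55. FGFR2 was at 9.73 with 5 of 12 above, IGF1R at 8.91 with 4 of 7, EPHA2 at 8.48 with 2 of 2, ERBB3 at 8.34 and ERBB2 at 7.85 with 4 of 5. FGFR3 at 7.34, FGFR1 at 6.45 and PDGFRB, of stromal cells, at 6.08 each passed in a single probe set. Receptors known from vessels and nerve lay on both sides of the floor, with TIE1 at 7.41 through 2 of 7, FLT4 at 6.81 through 1 of 6 and NTRK3 at 6.03 through 1 of 4. CSF1R, of macrophages, was below at 5.92 but read 6.19 and 6.26 in the other arrays. Also below were KDR at 5.57, ALK at 4.46, RET at 4.30, PDGFRA at 4.29, ERBB4 at 4.27, KIT at 3.34, TEK at 3.17 and ROS1 at 2.87. Medians of probe sets put 17 of 56 above, and MET and FGFR2 were among those that then stood below the floor, at 5.76 and 4.83.

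Ligands of the EGF family were above in 3 of 10. NRG1, which binds ERBB3 and ERBB4, was at 10.98 with 5 of 8 probe sets above, and the EGFR ligands TGFA and HBEGF at 9.48 with 2 of 4 and at 6.90 with 1 of 2. EREG at 3.92, EPGN at 3.95 and EGF itself at 3.51 were below in every probe set. Receptors and ligands of the Notch, Wnt and Hedgehog pathways, which set the choice between renewal and differentiation, were above in 19 of 26. JAG1, a Notch ligand, was at 10.28 and JAG2 at 7.94, with the receptors NOTCH2 at 8.27 with 2 of 5, NOTCH3 at 6.82 and NOTCH1 at 6.29. The Wnt receptors FZD6 at 9.68, FZD2 at 9.01, LRP6 at 8.15 through 1 of 3 and FZD7 at 7.15 were above, and FZD10 at 5.38 and LGR5, of intestinal stem cells, at 5.05 were below. The Hedgehog receptor PTCH1 was at 8.78 with 2 of 5 and its signalling partner SMO at 5.35. Medians of probe sets put 11 of these 26 above.

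Receptors of the TGF-beta family, which restrain epithelial growth, were above in 10 of 13. TGFBR2 was at 10.45 with 2 of 2 probe sets above, TGFBR1 at 8.85 with 1 of 3, ENG at 6.70 and BMPR2 at 6.48 through 1 of 3, and ACVRL1, of vessels, was below at 5.23. Nuclear receptors, which are switched by hormones and lipids, were above in 20 of 39, with 5 changing side between arrays. The glucocorticoid receptor NR3C1 was at 10.23 with 10 of 10 probe sets above, the vitamin D receptor VDR at 9.03, the retinoid receptors RXRA at 8.45 and RARG at 7.78, and PPARD at 6.84 through 1 of 3. PGR at 3.29 and PPARG at 3.16 were below, and the estrogen receptor ESR1 was at 6.10 through 1 of 5 probe sets and at 5.92 in the wild-type array. Medians of probe sets put 13 of the 39 above.

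Junction genes gave an epithelial profile with gaps. Desmosomes and hemidesmosomes, the anchors that tie keratin filaments to neighbouring cells and to the basement membrane, were above the floor in 16 of 19 genes, with a median of 9.07. Desmoplakin DSP was at 11.79, the integrin chain ITGA6 at 11.74, desmoglein DSG2 at 11.10, dystonin DST at 10.59, plectin PLEC at 10.40, PERP at 10.31 and plakoglobin JUP at 10.12. DSG3 at 9.0, ITGB4 at 8.44 with 8 of 8 probe sets above, PKP3 at 8.43, DSC2 at 8.34 with 3 of 6, DSC3 at 7.81 and PKP1 at 7.37 were above too. The 3 below were DSG4 at 4.35, DSG1 at 3.91 and DSC1 at 3.51, which belong to hair and the upper layers of stratified epithelium.

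Adherens and tight junction genes, which hold cells together and close the space between them, were above in 19 of 38, with 8 bright. E-cadherin CDH1 was at 11.91 in 1 probe set and 5.46 in the other. P-cadherin CDH3 was at 11.27 with 2 of 2, CTNNA1 at 11.60 with 6 of 7, CTNNB1 at 11.36 with 8 of 8 and TJP1 at 11.22 with 2 of 2. The claudins CLDN4 at 10.46 and CLDN7 at 8.85, and OCLN at 6.65, were above, whereas CLDN1, a claudin of squamous epithelium, was at 4.11 with 0 of 4 probe sets above. CLDN18 of stomach and lung at 5.63, CDH5 and CLDN5 of vessels at 5.29 and 4.09, and CLDN8 at 2.89 were below. Gap junction genes, which form channels between cells, were above in 6 of 18. GJC1 was at 9.46 with 3 of 3, GJA1 at 9.27 through 1 of 4, PANX1 at 8.91 and GJB5 at 8.21, while GJB2 at 4.77 and GJB6 at 3.30, the connexins of stratified epithelium and inner ear, were below in all probe sets.

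Integrins, which bind matrix, were above in 14 of 25. ITGB1, the shared beta chain, was at 12.78 with 4 of 5 probe sets above, ITGB5 at 9.67 and ITGAV at 9.15 through 1 of 5. ITGA3 was at 8.68 through 1 of 3, ITGA2 at 8.49 and ITGA5 at 7.25 with 2 of 4. Of the chains known from leukocytes, ITGAE was bright at 10.31 with its 1 probe set. ITGAX at 7.40 and ITGAL at 7.01 were above through 1 of 4 probe sets each. These 3 chains were above the floor in all 3 arrays. ITGB2 was at 6.19 and at 5.78 in the wild-type array, and ITGAM at 4.19 and ITGA4 at 3.81 were below in every probe set. By medians of probe sets 7 of 25 were above. Collagens were above in 15 of 43 and bright in 0. Those above included the basement membrane chains COL4A2 at 9.01, COL4A1 at 8.68, the anchoring fibril chain COL7A1 at 8.56 and COL18A1 at 7.67. Outside these, COL12A1 was at 8.66 and COL9A3 at 8.62. The fibrillar collagens of connective tissue were below, with COL1A1 at 5.2 and its 5 probe sets from 3.21 upward, COL1A2 at 4.48, COL3A1 at 3.66 and COL5A2 at 5.69, although COL5A2 read 6.15 and 6.29 in the other arrays.

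Laminins and other basement membrane genes were above in 9 of 14. Agrin AGRN was at 12.37, the laminin chains LAMB3 at 10.84, LAMB1 at 10.45, LAMC1 at 10.43 and LAMA5 at 9.75, and perlecan HSPG2 at 8.63 through 1 of 2, whereas NID1 at 5.57 and NID2 at 4.38, which link laminin to collagen, were below. Matrix glycoproteins and proteoglycans were above in 15 of 28. CCN1 was at 12.54, the hyaluronan receptor CD44 at 11.96 with 10 of 10 probe sets above, THBS1 at 11.93 with 4 of 5, SDC4 at 11.43, SDC1 at 10.47, CCN2 at 8.57, TGFBI at 8.01 and TNC at 7.85. Products known from stroma lay on both sides. BGN at 7.54 with 4 of 7, ELN at 7.04 with 2 of 3 and FBLN1 at 6.92 with 5 of 8 were above, and SPARC at 6.10 passed through 1 of 8. SPP1 at 4.69, POSTN at 4.06, LUM at 3.77 and DCN at 3.35 were below.

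Proteases of the matrix and their inhibitors were above in 14 of 30. The plasminogen activators PLAU at 11.54 with 3 of 3 and PLAT at 8.85 with 7 of 7 were above, as was the receptor PLAUR at 9.69 with 5 of 5. Membrane-bound MMP14 was at 10.01 with 3 of 4, MMP2, which it activates, at 7.19 with 2 of 4, and the inhibitors TIMP1, TIMP2 and SERPINB5 at 10.77, 9.65 and 9.28. Other secreted proteases lay on both sides of the floor. MMP28 at 7.29 with 2 of 2, MMP11 at 6.69 with 2 of 2 and MMP19 at 6.62 with 2 of 5 were above. MMP13 at 5.09, MMP9 at 4.98, MMP1 at 4.66 and MMP10 at 3.03, and the inhibitor TIMP3 at 4.95, were below in every probe set. Of the lysyl oxidases, which cross-link collagen and elastin, 4 of 5 were above. LOXL2 was at 8.81 in these control cells, with its other probe sets at 5.06, 5.38 and 7.46. The set that gave 8.81 was no higher in the arrays labelled as overexpressing it, at 8.73 with Δe13 and 8.32 with the wild type. The sets at 5.06 and 5.38 read 10.77 and 7.94 with Δe13, and 10.22 and 8.07 with the wild type. The set at 7.46 read 7.41 with Δe13 and 14.05 with the wild type, so 3 of the 4 sets were higher in the wild-type array and 2 in the Δe13 array. Which part of the transcript each set reads was not analysed here. LOXL4 was at 6.95, LOXL1 at 6.46, LOX at 6.21 through 1 of 6 and LOXL3 at 5.65.

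**Figure D4:**
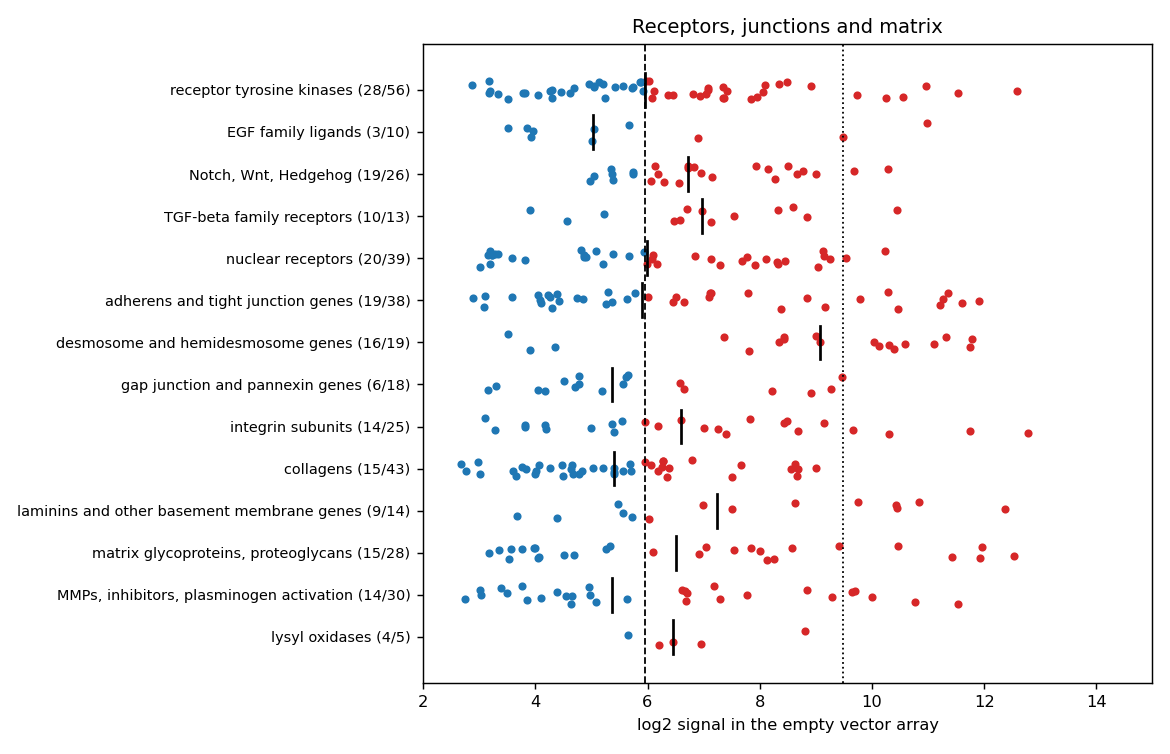
Log2 signal in the empty vector array (horizontal) of every measured gene of 14 groups of receptors, ligands, junction and matrix genes, with the number above the floor and the number measured beside each name. Red points are above and blue points below the floor (dashed, 5.95), the dotted line is the 90th percentile (9.48) and the black bar each group's median; the desmosome group has its median at 9.07 and the collagens theirs at 5.41.

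Central metabolism was covered nearly throughout. Of 34 genes of glucose uptake, glycolysis and lactate 28 were above the floor and 17 bright, with a median of 9.43. Among the enzymes in the order of the pathway, HK1 was at 11.73 and HK2 at 9.60, PFKP at 11.42, ALDOA at 13, GAPDH at 14.19, PGK1 at 13.01 with 9 of 9 probe sets above, ENO1 at 12.36, PKM at 10.24 with 4 of 6, LDHA at 13.97 and LDHB at 13.24. The glucose transporter SLC2A1 was at 10.86 with 3 of 4 above. Forms known from particular tissues lay on both sides. Above were PFKM of muscle at 9.77, ALDOC of brain at 9.58 with 5 of 5, ENO2 of neurons at 8.57, SLC2A4 of muscle and fat at 6.88 through 1 of 4, HK3 at 6.87 and ENO3 of muscle at 6.30 with 2 of 3. Below were PKLR of liver and red cells at 5.67, PGK2 and LDHC of testis at 4.08 and 3.94, PGAM2 of muscle at 4.02 and SLC2A2 of liver at 3.0.

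In the citric acid cycle and pyruvate dehydrogenase group 19 of 20 were above, with a median of 10.41. MDH2 was at 12.37, PDHA1 at 10.62, IDH1 at 10.61, CS, which starts the cycle, at 10.53, SDHA at 10.48, IDH2 at 8.48 and PC at 7.15. The exception was PDHA2, the testis form, at 3.17. Without probe sets of the types _s_at and _x_at, CS read 3.54 and SDHA 3.71, and 15 of 19 genes were above. Amino acid and one-carbon genes were above in 19 of 22, with a median of 9.29. The transporter SLC7A5 was at 12.03, MAT2A at 11.10, the serine pathway enzymes PSAT1 at 11.04 with 8 of 8 and PHGDH at 8.85, asparagine synthetase ASNS at 10.83, ODC1 at 9.97, glutamine synthetase GLUL at 9.77, SLC1A5 at 9.41, SHMT2 at 9.16, MTAP, a neighbour of CDKN2A, at 8.37 with 6 of 6 and NNMT at 8.02. BCAT1 at 4.12, the tryptophan enzyme IDO1 at 3.99 and KYNU at 3.52 were the 3 below.

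Lipid genes were above in 21 of 30, with a median of 8.29. SCD, which desaturates fatty acids, was at 12.10 with 4 of 4, HMGCS1 and SQLE of cholesterol synthesis at 10.54 and 10.15, FABP5 of keratinocytes at 9.03, FASN at 8.67, CPT1A at 8.39 and FADS2 at 7.36. Lipid uptake genes of fat and vessel were below, with LPL at 4.69, FABP4 at 4.19 and CD36 at 2.92. Pentose phosphate and NRF2 target enzymes were above in 14 of 24, close to the array-wide share. Those above included TXN at 13.62, GSTP1 at 12.47, TKT at 12.45, NQO1 at 12.21, TALDO1 at 11.61, TXNRD1 at 11.49, GCLM at 10.05, SLC7A11 at 9.16 with 3 of 3, PGD at 8.71, HMOX1 at 7.03 and GPX2 at 6.43. The aldo-keto reductases AKR1C1 at 2.99, AKR1C2 at 4.79, AKR1C3 at 5.41 and AKR1B10 at 5.8, and the dehydrogenases ALDH3A1 at 3.82, ALDH1A1 at 3.71 and ADH7, an alcohol dehydrogenase of upper digestive epithelium, at 5.07, were below, although AKR1B10 read 6.23 and 6.39 in the other arrays. NFE2L2, which is known to drive several of these genes, was at 11.75.

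Genes of gluconeogenesis, the urea cycle and liver were above in 6 of 19. ASS1 at 10.38 and ASL at 9.15, which make arginine, and PCK2, the mitochondrial carboxykinase, at 7.64 were above. APOA1 at 6.4, TTR at 6.38 and UROC1 at 6.26 were between the floor and the 75th percentile. MAT1A at 5.70, G6PC1 at 5.38, CPS1 at 5.30, PCK1 at 4.68, OTC at 4.64, FBP1 at 4.56, ALB at 3.44, APOB at 3.13 and ARG1 at 2.96 were below. Cytochrome P450 genes, which oxidise drugs, sterols and fatty acids, were above in 16 of 47 and bright in 0. CYP1A2 at 9.18 and CYP1A1 at 8.76, neighbours of similar sequence, CYP1B1 at 7.33 with 4 of 5, CYP2S1 at 7.16 and CYP24A1 at 6.50 were above, the last through 1 of 3 probe sets and below in both other arrays. CYP3A4 at 4.79, CYP19A1 at 4.26, CYP2E1 at 4.23 and CYP7A1 at 3.97 were below.

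Genes of antigen presentation by MHC class I, which shows peptides from inside the cell to T cells, were above throughout. All 18 measured genes were above the floor in the 3 arrays, with a median of 9.19. B2M, the shared light chain, was at 13.16 with 8 of 8 probe sets above, HLA-E at 11.11, HLA-C at 10.70, PSMB8 at 10.02, PSMB9 at 9.56, TAP1 at 9.25, HLA-B at 8.93 and the activator NLRC5 at 7.96 through 1 of 2. HLA genes are alike in sequence, and HLA-B read 3.99 without probe sets of the types _s_at and _x_at. MHC class II, which dendritic and B cells use, was above in 5 of 12 and at or above the 75th percentile in 0. HLA-DPB1 was at 7.83 through 3 of 13 probe sets, the activator CIITA at 6.76 through 1 of 4, HLA-DRB1 at 6.66, HLA-DQB1 at 6.26 through 1 of 8 and HLA-DPA1 at 6.22 through 1 of 4, while CD74 at 5.71 and HLA-DRA at 3.87 were below in every probe set. By medians of probe sets 1 of the 12 was above, and without the types _s_at and _x_at 2 of 9.

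Ligands of immune checkpoints and NK cells were above in 12 of 22. CD47, the signal against phagocytosis, was at 10.30, CD276 at 9.32, MICA at 9.09 with 3 of 3, PVR at 8.29, FAS at 7.66 and MICB at 6.83. CD274, the ligand of the PD-1 receptor, was at 6.28, with probe sets at 3.16, 5.19, 5.98 and 6.28. CD86 at 5.45, PDCD1LG2 at 5.19, CD80 at 5.07, VTCN1 at 4.32 and FASLG at 3.25 were below. Cytokines and chemokines were above in 19 of 63, with a median of 4.85. The interleukins IL1A at 11.70, IL1B at 10.57 and IL18 at 9.41, which epithelium releases when damaged, were above, and so were CXCL8 at 8.72 with 3 of 3, IL6 at 8.47 through 1 of 2, LIF at 8.43, CCL5 at 7.91 with 3 of 3, IL23A at 7.08 with 2 of 4, CSF3 at 6.50 and CCL20 at 6.02. IL1RN, the antagonist of IL1A and IL1B, was at 5.29, and the epithelial alarm cytokines TSLP at 3.45 and IL33 at 3.15 were below. CXCL1 at 5.85, TNF at 4.89, IL10 at 4.79, CXCL12 at 4.31, IFNG at 3.91, CXCL10 at 3.78, CCL2 at 3.64, IFNB1 at 3.39 and IL2 at 2.69 were below.

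Innate sensors and genes of inflammatory cell death were above in 15 of 33. IFI16 was at 10.02 and CASP4 at 9.63 with 6 of 7, and the pore protein GSDME was at 9.48 and GSDMD at 7.11. The adaptor MYD88 at 7.87 through 1 of 5, NLRP1, the main inflammasome sensor of keratinocytes, at 7.66 with 3 of 3, the RNA sensors IFIH1 at 7.59 through 1 of 2 and RIGI at 6.99, and STING1 at 6.70 and CGAS at 6.10 through 1 of 2 of the DNA sensing pathway, were above. Of the Toll-like receptors, which sense microbes, those named were below, with TLR4 at 5.23, TLR3 at 3.87, TLR2 at 3.61 and TLR10 at 2.88. NLRP3 at 5.66, its adaptor PYCARD at 5.13 and AIM2 at 3.13 were below. CASP1 was at 6.06 through 1 of 9 probe sets, and at 5.27 and 5.19 in the LOXL2 Δe13 and wild-type arrays.

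**Figure D5:**
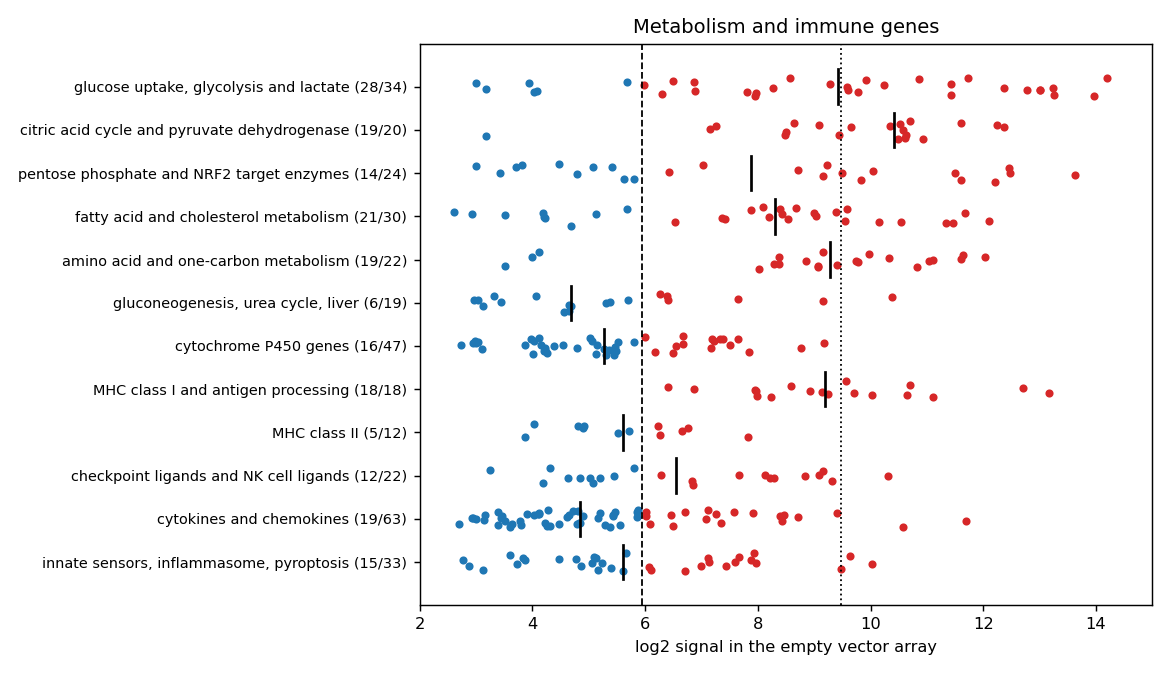
Log2 signal in the empty vector array (horizontal) of every measured gene of 12 groups of metabolic and immune genes, with the number above the floor and the number measured beside each name. Red points are above and blue points below the floor (dashed, 5.95), the dotted line is the 90th percentile (9.48) and the black bar each group's median; all 18 MHC class I genes are red, and the citric acid cycle group has 1 blue point.

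Proliferation genes were above in 26 of 28, with a median of 9.64. CCND2, a D-type cyclin, was at 12.65 with 3 of 3, PCNA at 11.48, CCNB1 at 11.45, CDK1 at 10.87, TOP2A at 10.72 with 3 of 3 and MKI67 at 9.58 with 5 of 6. The inhibitors CDKN1A at 9.33 and CDKN2B, which neighbours CDKN2A, at 6.92 were above, as were MYCL at 6.72, CCNE1 at 6.57 and TERT, the telomerase enzyme, at 6.55, each of these last 3 through a single probe set. MYCN was at 5.97 through 1 of 4. CDKN1C at 4.76 and CCNA1, the germline cyclin, at 3.56 were below. Cancer-testis antigens, germline genes that tumours can switch on, were above in 5 of 23. MAGEA4 was at 12.13, MAGEA12 at 8.12, SPA17 at 7.77, CTCFL at 6.45 through 1 of 7 and MAGEB2 at 6.13. MAGEC2 at 4.82, MAGEA1 at 3.34, SYCP1 at 3.20, DDX4 at 2.99 and PRAME at 2.75 were below. MAGEA4 was above in 3 of 3 probe sets, at 12.13 also without the types _s_at and _x_at, under which 3 antigens of the list were above.

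Markers of other cell types apart from muscle and melanocytes were mostly below the floor. They describe signals of a cell line, and why some members were above was not tested. Leukocyte markers were above in 2 of 15 and ranged from 2.80 to 8.97. PTPRC, which all leukocytes carry, was at 2.89, with its 6 probe sets from 2.60 to 2.89, and CD3E at 5.55, CD8A at 5.07 and CD14 at 3.56 were below. CD68, a lysosomal protein of macrophages that other cells also make, was at 8.97 with 2 of 2, and NKG7 was at 6.13. Fibroblast markers were above in 1 of 10 and ranged from 2.68 to 6.08. PDGFRB at 6.08 was the member above, and THY1 at 4.79, LUM at 3.77, DCN at 3.35 and FAP at 2.68 were below. Endothelial markers were above in 0 of 8, from TEK at 3.17 to PECAM1 at 5.94, with VWF at 5.67. Gland and intestine markers were above in 0 of 9, from VIL1 at 3.25 to REG4 at 5.36, with CDX2 at 5.35, TFF1 at 4.69, CDH17 at 4.06 and TFF3 at 3.70.

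Neuroendocrine markers were above in 1 of 5, with SYP at 7.44 through 1 of 3 probe sets, CHGA at 4.58 and INSM1 at 3.14. Melanocyte markers were above in 2 of 4, SOX10 at 6.59 and PMEL at 6.25, with TYR at 5.37 and MLANA at 4.91 below. Muscle markers were above in 5 of 7, with MYL9 at 7.24, ACTA1 at 7.07, DES at 6.69, MYH11 at 6.52 and CNN1 at 6.20, each through a single probe set of type _x_at. Without the types _s_at and _x_at, 0 of 6 muscle markers were above. By medians of probe sets, counts above were 1 for muscle, 1 for melanocyte and 0 each for neuroendocrine and fibroblast markers.

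The 20 genes of strongest signal on the array were nearly all of protein synthesis. They held the ribosomal genes RPS2 at 14.56, RPL32 at 14.39, RPL41 at 14.29, RPLP1 and RPS21 at 14.19, and RPL31 at 14.16, with RPL7A, RPL37A, RPL37, RPS28, RPL12, RPL13A, RPS27, RPS14, RPS15A and RPL28 between 14.12 and 13.97. The elongation factor EEF1A1 was at 14.17. The others were MT2A, a metal-binding metallothionein, at 14.55, GAPDH at 14.19 and TPT1, a growth-related protein, at 14.08. Their probe sets did not all read alike: MT2A had a probe set at 7.53, EEF1A1 a probe set at 4.20 and TPT1 a probe set at 3.11.

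The probe sets of a gene were the only repeat reading on this array. Of 11734 genes with several probe sets, 3517 were above the floor in all of them, 3595 in none and 4622 in some, and the median standard deviation between probe sets of a gene was 1.0. The share of genes above rose with the number of probe sets, from 40.3% with 1 to 63.9% with 2 or 3 and 80.7% with 4 or more, the value used being the highest of them. Across the 3 arrays, which differ in LOXL2, 10428 genes were above the floor in all and 7180 in none, and 524 changed side. Within 0.25 of the floor lay 1178 genes (6.5%).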

How the data were processed

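Each of the 3 PrimeView arrays gives 49395 probe sets as deposited log2 signals. The authors used RMA, the submitters' processing notes say, a method known to remove background, quantile-normalize arrays and condense probes into a probe set value. No RMA version is given in these sources. Values from 2.07 to 14.56 showed the scale to be log2. Control probe sets numbered 102. Symbols were those of GEO's platform annotation, checked against RefSeq (GRCh38.p14) by Entrez ID, where 27 probe sets found no match. A single symbol was held by 44988 probe sets (91.3% of the rest), several by 1832, and 2473 had none listed.

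Genes were sorted into 47 lists holding 1407 measured genes, and 85 listed symbols were not analysed here. The members and lists were chosen with earlier results of these data known. Genes named were core members marked in each list, up to 4 others with the highest signals above the floor and up to 4 with the lowest, every member above the floor where there were 5 or fewer, and the 20 of highest signal. Names outside this rule, among them REG4, the genes beside the floor and several tissue forms of enzymes, receptors and matrix proteins, were chosen after their values were seen.

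With 1 array per group there was no test, and the number of arrays limits the precision. Alternatives were the median over probe sets, the probe set with the highest mean over 3 arrays, omission of _s_at and _x_at probe sets, floors at the 75th percentile and at the highest background control, and a call in all 3 arrays. The counting was tested on simulated data. Calculations used Python 3.11.15, numpy 2.4.6 and pandas 2.3.3, and plots matplotlib 3.10.9.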

Additional observations from a re-analysis of the deposited data

How the results depend on the processing

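Counts of genes above the floor are compared here for all genes and 47 lists, 48 counts in all. With the probe set of highest mean over the 3 arrays, or with a call required in all 3 arrays, all 48 counts stayed within 1.5 times. No alternative can raise a count above the main one. The endothelial and gland marker counts were 0 from the start, so they stayed by design in every setting. Medians of probe sets kept 34, with 48.5% of all genes above. The exceptions were 17 receptor tyrosine kinases, 13 nuclear receptors, 11 Notch, Wnt and Hedgehog genes, 10 squamous and foregut factors, 7 integrins, 5 genes of the epithelial-mesenchymal transition, 3 factors of other lineages, 1 each of columnar factors, mucins, MHC class II, melanocyte and muscle markers, and 0 fibroblast and neuroendocrine markers. Without the probe set types _s_at and _x_at 16701 genes kept a value and 41 counts stayed. Above were then 31 of 41 measured ribosomal genes, 3 of 22 type I keratins, 3 of 19 cancer-testis antigens and 2 of 9 MHC class II genes. Counts were 1 of 13 for columnar factors, 1 of 12 for leukocyte markers and 0 of 6 for muscle markers.

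With the floor at the 75th percentile 6354 genes were above and 17 counts stayed. The others were 13 receptor tyrosine kinases, 11 nuclear receptors, 11 adherens and tight junction genes, 9 squamous and foregut factors, 9 Notch, Wnt and Hedgehog genes, 8 integrins, 8 cytokines, 7 differentiation genes, 7 matrix proteases, 6 innate sensors, 5 collagens, 4 TGF-beta family receptors, and 3 each of type I keratins, type II keratins and transition genes. There were 2 each of liver, cytochrome P450, cancer-testis and olfactory genes, 1 each of factors of other lineages, HOX genes, mucins, lysyl oxidases and leukocyte markers, and 0 columnar factors, MHC class II genes and fibroblast, melanocyte, neuroendocrine and muscle markers.

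With the floor at the highest background control, 10.84, 970 genes (5.3%) were above and 3 counts stayed. Those were 66 ribosomal genes and, fixed at 0, the endothelial and gland markers. The rest were 12 glycolytic, 8 proliferation and 6 redox genes, 5 each of adherens and tight junction and amino acid genes, and 4 each of differentiation, desmosome, matrix glycoprotein, citric acid cycle and lipid genes. There were 3 each of cancer driver, receptor tyrosine kinase and MHC class I genes, 2 each of type I keratins, type II keratins, integrins and laminins, and 1 each of EGF ligands, matrix proteases, cytokines and cancer-testis antigens. The remaining 23 lists that moved had 0. They were the squamous, columnar, other lineage and HOX factors, transition genes, mucins, Notch, Wnt and Hedgehog genes, TGF-beta and nuclear receptors, gap junctions, collagens, lysyl oxidases, liver and cytochrome P450 genes, MHC class II, checkpoint ligands, innate sensors, olfactory receptors, and leukocyte, fibroblast, melanocyte, neuroendocrine and muscle markers. This floor is set by probes made of G and C alone.

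Of 396 core genes, 57 crossed the floor under the median over probe sets or without the types _s_at and _x_at. No paired analysis was possible because 1 array was described and no groups were compared. Precision is limited by the single array and by signals near the level of the background probes. Without the types _s_at and _x_at, genes with no other probe set also drop out of a count. The cause of the moved counts was not tested beyond this and the stricter rule each alternative applies.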

Other observations

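Probe sets without a listed gene were not described above. There were 2473 of them on the empty vector array, 1075 were above the floor of 5.95, and 262 reached the 90th percentile at 9.48. No genes were assigned to them here.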
